A study of Mus musculus with 15 samples.

Results

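The genes described here are the nuclear genes that encode the mitochondrial respiratory chain and ATP synthase, measured by polyA RNA-seq in TTF cells of female C57BL6/CAST hybrid mice. They were taken from the gene table by symbol: names starting with Nduf, Uqcr or Atp5, the 4 succinate dehydrogenase genes Sdha, Sdhb, Sdhc and Sdhd, Cyc1, Cycs, and the Cox4 to Cox8 subunit genes with a letter a, b or c after the digit. Symbols with the pseudogene suffix were left out, and a mean of at least 1 CPM (counts scaled to 1000000 per library) over the 6 libraries was required. Of 98 such symbols, 89 passed, out of 55487 genes in the table and 16678 genes tested. Just inside the minimum lay Cox6a2 at a mean of 1.57 CPM, and just outside it Cox7a1 at 0.674 CPM and Ndufa4l2 at 0.50 CPM. Of the 89 members, 2 (Cox6c2 and Ndufb4c) are annotated as processed pseudogenes, and the other 87 code for protein. All 89 entered the test, so none was lost to the filter on low counts. Cox4i1, which encodes a subunit of complex IV, is not matched by the symbol rule because its digit is followed by i, and it is given with the related genes.

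The wild-type group held 3 libraries with the genotype label S7WT_TTF, called WT 1, WT 2 and WT 3. The knockout group held 3 libraries, called KO 2, KO 9 and KO 22 after the numbers in their column names, which match the SIRT7-KO lines c2, c9 and c22. The series also has 3 libraries labelled S7KO_TTF, numbered as replicates, and it is not settled here that the columns are not theirs. SIRT7 is a nuclear sirtuin, a deacylase that uses NAD+. TTF is the usual abbreviation for tail-tip fibroblasts. The labels do not say whether the wild-type libraries came from separate cultures or animals, so p-values measure the spread between these libraries. By its number each knockout library is a separate line, and the genotype and the lines cannot be told apart from anything else that set these lines apart from the wild-type cells. By this match the other 9 of the 15 labelled samples were not analysed here.

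Complex I takes electrons from NADH, complex II from succinate, and both pass them through coenzyme Q to complex III, then by cytochrome c to complex IV, which reduces oxygen. Complexes I, III and IV pump protons across the inner mitochondrial membrane, and complex V, the ATP synthase, uses the resulting gradient to make ATP. Most subunits are encoded in the nucleus and imported, while a few core subunits of complexes I, III, IV and V are encoded in the mitochondrial genome, so the complexes draw on both genomes. Many of the nuclear promoters carry sites for the nuclear respiratory factors NRF1 and GABP.

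Total gene counts lay between 61065582 and 61506413 per library, and no library pair differed by as little as sampling noise. The biological coefficient of variation was 0.135 among wild-type and 0.378 among knockout libraries. The gene count of Sirt7 itself was 833, 1107 and 598 in the wild-type libraries and 512, 694 and 787 in the knockout libraries, which overlap, and so they do not by themselves check the knockout label. Of its 3 protein-coding transcripts, Sirt7-201 had 53, 58 and 159 counts in wild type and 2, 0 and 0 in the knockout libraries, Sirt7-207 had 118, 11 and 68 against 60, 129 and 0, and Sirt7-202 was at 0 throughout. All 10 fibroblast markers exceeded a mean of 1 CPM, with a summed level of 16740 to 16966 CPM in wild type and 25718 to 32567 CPM in knockout, and 3 of them (Col1a1, Col1a2 and Col3a1) were called higher. The sum hides markers that were low in some knockout libraries: Thy1 lay at 98.6 to 101 CPM in wild type against 21.6, 0.20 and 71.5 CPM in KO 2, 9 and 22, Pdgfra at 68.6 to 76.0 CPM against 9.46, 11.4 and 81.3 CPM, and Dcn at 118 to 132 CPM against 194, 16.4 and 145 CPM. Keratinocyte and endothelial markers summed to at most 0.24 CPM in any library. The 5 skeletal muscle markers summed to 18.1 to 21.7 CPM in wild type and 49.3 to 112 CPM in knockout, nearly all of it Acta1, with Myod1 and Myog at 0 counts in every library. The 5 macrophage and leukocyte markers summed to 10.2 to 11.2 CPM in wild type and 11.3 to 27.4 CPM in knockout, with Adgre1 at 0. The 4 adipocyte markers ranged from 16.6 to 21.6 CPM and from 4.72 to 40 CPM, the 3 cartilage markers from 5.37 to 6.41 CPM and from 3.63 to 10.2 CPM, and the 5 melanocyte and Schwann cell markers stayed at or below 2.90 CPM. The part of these marker differences in the results on respiratory chain genes was not tested.

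The promoter windows of 3 of the 4 members that passed the test are shown, since they hold different sets of the motifs searched. Each window runs from 250 bases before to 50 bases after the start given by RefSeq on GRCm38.p6, written along the gene's strand, with any motif match in capitals. The Atp5g2 window lies at chr15:102670998-102671297 on the minus strand, the Ndufaf8 window at chr11:120098684-120098983 on the plus strand, and the Ndufb8 window at chr19:44555393-44555692 on the minus strand.
Atp5g2: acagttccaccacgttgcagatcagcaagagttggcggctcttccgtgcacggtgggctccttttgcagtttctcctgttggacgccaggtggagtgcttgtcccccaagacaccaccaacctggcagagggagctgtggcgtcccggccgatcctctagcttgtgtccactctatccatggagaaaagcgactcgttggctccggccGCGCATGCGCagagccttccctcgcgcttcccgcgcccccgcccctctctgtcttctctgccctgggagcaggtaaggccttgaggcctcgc
Ndufaf8: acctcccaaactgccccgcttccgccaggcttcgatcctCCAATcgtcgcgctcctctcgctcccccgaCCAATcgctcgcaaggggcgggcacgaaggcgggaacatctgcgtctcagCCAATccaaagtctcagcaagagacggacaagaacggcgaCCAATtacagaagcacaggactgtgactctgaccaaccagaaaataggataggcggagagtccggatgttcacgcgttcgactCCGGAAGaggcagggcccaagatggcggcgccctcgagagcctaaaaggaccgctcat
Ndufb8: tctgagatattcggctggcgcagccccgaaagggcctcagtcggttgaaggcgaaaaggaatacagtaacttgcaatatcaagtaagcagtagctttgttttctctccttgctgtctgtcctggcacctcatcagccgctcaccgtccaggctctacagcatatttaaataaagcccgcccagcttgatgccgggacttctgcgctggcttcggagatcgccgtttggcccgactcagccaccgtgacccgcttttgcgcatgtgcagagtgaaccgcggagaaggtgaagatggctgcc
The Atp5g2 window held 2 overlapping matches to the NRF1 motif GCGCANGCG, 1 on each strand, the first starting at base 209, and none to the GABP core CCGGAAG or to CCAAT. In the Ndufaf8 window there was a CCGGAAG match at base 243 and 4 CCAAT matches, the first of them at base 40. The Ndufb8 window held none of these letters. RefSeq windows were found for 73 of the 89 members, which gave 78 windows, and Ndufb9 was among the 16 without a window. With both strands searched, CCGGAAG was present in 24.4% of member windows and in 8.86% of all 32851 windows of this length, and GCGCANGCG was present in 30.8% against 6.25%. CCAAT was present in 42.3% of member windows and 37.4% of all windows. These matches describe letters only, and no binding was measured.

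Knockout and wild-type libraries were compared to ask how the respiratory chain genes stood without SIRT7. Of the 89 members, 4 were lower in knockout, 0 were higher and 85 did not pass edgeR's quasi-likelihood test at an adjusted p under 0.05. The members that fell were Ndufaf8, an assembly factor of complex I, Ndufb9 and Ndufb8, accessory subunits of complex I, and Atp5g2, a copy of the c-ring subunit of ATP synthase. Over all tested genes 6.73% were called, with 3.19% called lower and 3.54% called higher. The members' 4.49% called lower is near that background. At an unadjusted p under 0.05 there were 16 members, 13 lower (12.5% of all genes were so) and 3 higher, or 18.0% of the members against 26.3% of all genes. The fold changes were small: the median over members was -0.10 on the log2 scale, against 0.02 over all tested genes, and 64 of 89 members were negative (71.9%, against 48.4% of all genes). In 22 members every knockout library lay below every wild-type library (24.7%, against 20.2% of all genes), and in 4 every one lay above (4.49%, against 15.7%). In bulk RNA, fewer cells of a type and less RNA per cell cannot be told apart.

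The calls depended on which libraries entered. With WT 1, WT 2 or WT 3 left out, edgeR called 0 members, and 0.296%, 0.262% and 0.291% of all genes tested. Leaving out KO 2 gave 12 lower members (9.72% of all genes called), and leaving out KO 22 gave 6 lower and 3 higher (14.5%). In the fit without KO 9, 7.37% of all genes were called, and its member count is not given here. DESeq2 on all libraries called 10 lower and 1 higher (14.8%).

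**Figure D1:**
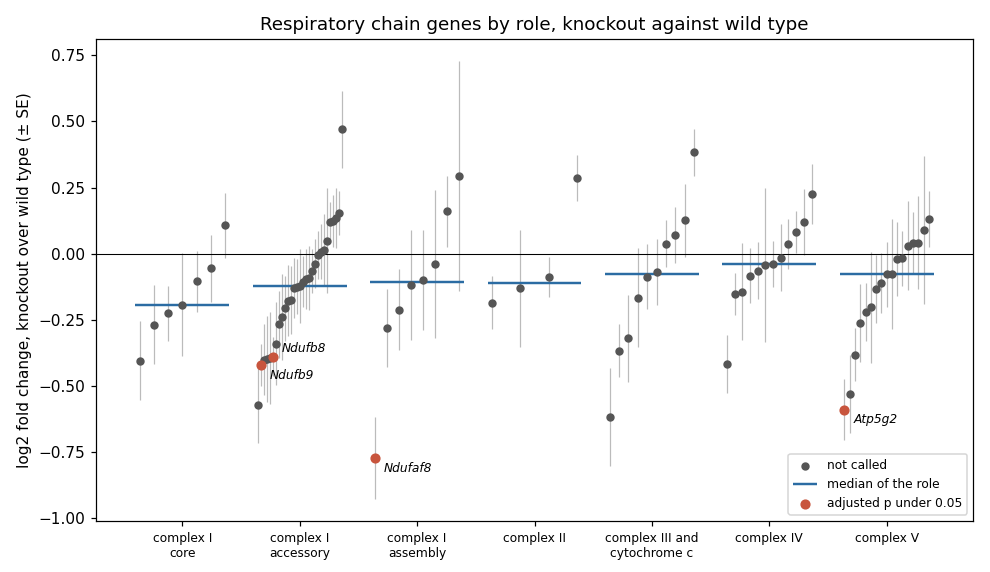
Log2 fold change of knockout over wild type (vertical axis, ± SE) for the 87 protein-coding members, grouped by role along the horizontal axis, with 3 libraries in each group; the blue line is the median of a role and red points passed the test. The role medians lie between -0.19 and -0.04, and the 4 red points are Ndufaf8, Atp5g2, Ndufb9 and Ndufb8.

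Complex I, the largest of the complexes, had 44 members here by role: 7 core subunits, 29 accessory subunits and 8 assembly factors. The core subunits, which hold the flavin and iron-sulfur clusters, had a median log2 fold change of -0.19, with 6 of 7 negative and none called. Ndufv2, an iron-sulfur subunit, was measured at 155, 150 and 150 CPM in wild type and 135, 89.2 and 113 CPM in KO 2, 9 and 22. The groups did not overlap, but the difference of -0.40 (SE 0.150) did not pass (adjusted p = 0.150).

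Among the 29 accessory subunits 2 were called lower, the median was -0.12 and 21 were negative. Ndufb9 (ENSMUSG00000022354, chr15:58933756-58939488, plus strand), a subunit of the membrane arm, was read at 341, 326 and 311 CPM in WT 1, 2 and 3 and at 236, 238 and 241 CPM in KO 2, 9 and 22. The knockout libraries were all lower and differed from each other by less than the wild-type libraries did, with 326 ± 14.9 CPM against 238 ± 2.31 CPM (SD, n = 3 each). The log2 fold change was -0.42 (SE 0.080, adjusted p = 0.035, edgeR). Ndufb8 (ENSMUSG00000025204, chr19:44548572-44555440, minus strand), also in the membrane arm, was read at 154, 158 and 151 CPM against 121, 114 and 112 CPM. It too had no overlap, at -0.39 (SE 0.074, adjusted p = 0.036, edgeR).

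Ndufc1, a small membrane-arm subunit on chromosome 3, had 44.3, 45.0 and 43.2 CPM in wild type and 25.7, 26.9 and 34.4 CPM in knockout. All knockout values were lower, and at -0.57 (SE 0.143) the adjusted p was 0.065 by edgeR. Ndufa1, an X-linked subunit needed for assembly of the enzyme, went the other way, with 39.4, 42.1 and 39.8 CPM against 57.1, 64.1 and 43.3 CPM. Its knockout values were all above wild type, and the difference of 0.47 (SE 0.146) had an adjusted p of 0.103. Without KO 22, the knockout library nearest to wild type, that difference was 0.60 with an adjusted p of 0.018 by edgeR.

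The 8 assembly factors, which help build complex I and are not part of the finished enzyme, had a median of -0.11 with 1 called lower. Ndufaf8 (ENSMUSG00000078572, chr11:120098928-120100705, plus strand) was the member with the largest fall: 19, 18.8 and 16.7 CPM in wild type and 8.78, 11.7 and 10.7 CPM in knockout. With group means of 18.2 ± 1.25 and 10.4 ± 1.5 CPM (SD, n = 3 each) there was no overlap, and the log2 fold change was -0.77 (SE 0.155, adjusted p = 0.040, edgeR). Ndufaf4, one of the 4 members with the highest log2 fold changes at 0.29 (SE 0.434, adjusted p = 0.715), showed 6.21, 6.45 and 18.5 CPM in wild type and 13.7, 12.1 and 11.6 CPM in knockout. There WT 3 stood apart from the other wild-type libraries and above every knockout library. The table of reads split by genome gave Ndufaf4 counts of 1053, 1029 and 1096 for wild type and 821, 737 and 698 for knockout, where the whole table had 379, 396 and 1139 against 835, 745 and 712. The 2 deposited tables thus place the groups in different orders for Ndufaf4, and its direction is not settled here.

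In complex II, which is also an enzyme of the tricarboxylic acid cycle, none of 4 genes was called and the median was -0.11. Sdha, the flavin-carrying catalytic subunit, was at 257, 279 and 266 CPM in wild type and 323, 343 and 290 CPM in knockout. Its knockout values all exceeded the wild-type values, at 0.28 (SE 0.087, adjusted p = 0.10). The other 3 subunits had negative differences: Sdhb, the iron-sulfur subunit, at -0.09, and the membrane anchors Sdhc at -0.18 and Sdhd at -0.13. Sdhd was low in KO 9, with 51.9 CPM against 91.8 and 92.3 CPM in KO 2 and KO 22.

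The 10 genes of complex III and cytochrome c had a median of -0.08 and no call. Cyc1 (ENSMUSG00000022551, chr15:76343523-76346260), the cytochrome c1 subunit, gave 307, 276 and 257 CPM against 227, 138 and 172 CPM. The groups did not overlap, but KO 2 was nearer to wild type than the other knockout libraries were, and the difference of -0.62 (SE 0.183) had an adjusted p of 0.094 by edgeR. Without KO 2 it was -0.81, with an adjusted p of 0.033. Uqcrfs1, the Rieske iron-sulfur protein, differed in the opposite direction, with 90.6, 94.2 and 90.2 CPM against 124, 122 and 105 CPM. All knockout values were higher, at 0.38 (SE 0.088, adjusted p = 0.054), and DESeq2 called it higher with an adjusted p of 0.023. Cycs, cytochrome c itself, had 96.7, 94.8 and 94.7 CPM in wild type and 80.4, 74.0 and 63.1 CPM in knockout, a difference of -0.37 (SE 0.101, adjusted p = 0.080).

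Complex IV had the median nearest to zero among the roles, -0.04 over 12 genes, with none called. Cox8a, a small subunit of complex IV, was read at 283, 292 and 280 CPM in wild type and 237, 213 and 178 CPM in knockout. All 3 knockout libraries were lower, at -0.42 (SE 0.108, adjusted p = 0.070, edgeR), and DESeq2 gave an adjusted p of 0.029. Cox6c, another small subunit, lay at 223, 235 and 230 CPM against 190, 236 and 209 CPM, with overlap.

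The 17 genes of complex V had a median of -0.08, with 12 negative and 1 called lower. Atp5g2 (ENSMUSG00000062683, chr15:102662864-102672352, minus strand), 1 of the 3 genes for the same mature c subunit, was at 426, 388 and 383 CPM in wild type and 264, 229 and 286 CPM in knockout. The groups did not overlap, with 399 ± 23.5 CPM against 260 ± 28.9 CPM (SD, n = 3 each), and the log2 fold change was -0.59 (SE 0.115, adjusted p = 0.037, edgeR). Atp5g1, the second of these genes, had 149, 135 and 137 CPM against 115, 93.8 and 76.4 CPM, also without overlap, at -0.53 (SE 0.147, adjusted p = 0.080). Atp5g3, the third, had 226, 216 and 213 CPM against 234, 168 and 183 CPM, with overlap, at -0.13 (SE 0.129). Atp5b, the catalytic beta subunit, was read at 2451, 2332 and 2371 CPM in wild type and 2674, 2145 and 2106 CPM in knockout, so that KO 2 was above and the others below all wild-type values. Atp5h, a stalk subunit, showed the same split: 152, 152 and 140 CPM in wild type against 235, 116 and 113 CPM.

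**Figure D2:**
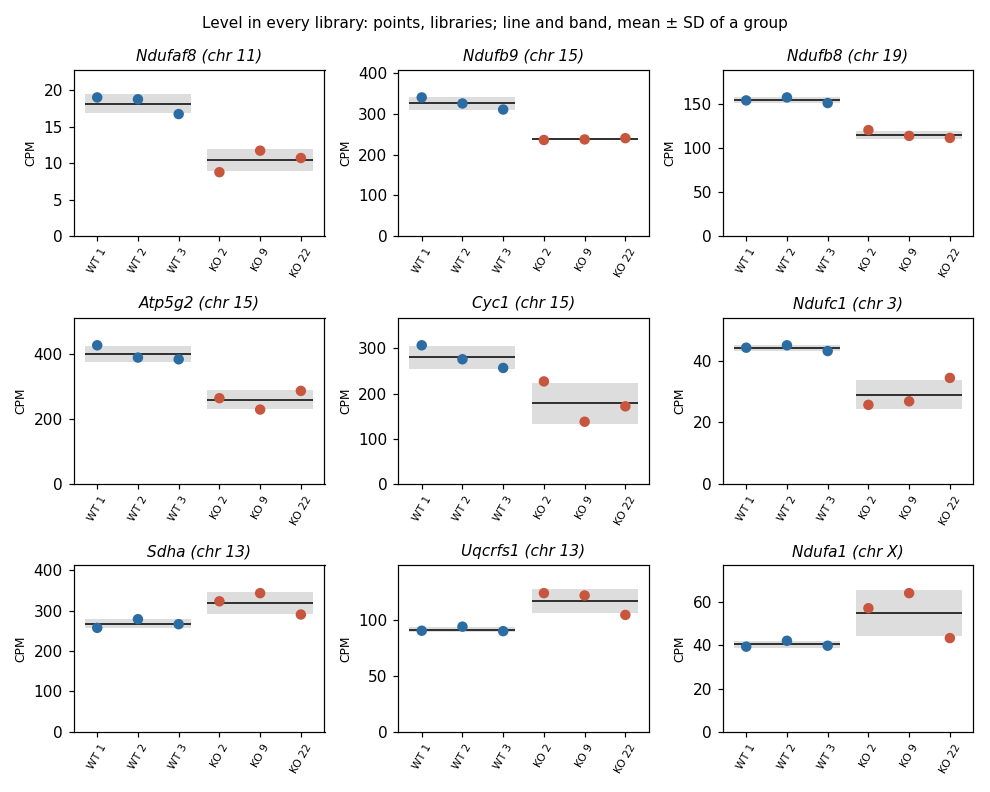
CPM in each of the 6 libraries (vertical axes from 0) for 9 members, with blue points for wild type, red points for knockout, and the group mean as a line within a band of ± 1 SD. In Ndufaf8, Ndufb9, Ndufb8, Atp5g2, Cyc1 and Ndufc1 all red points lie below the blue points, and in Sdha, Uqcrfs1 and Ndufa1 all lie above.

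The lines were not alike in these genes. Against the wild-type mean, the median member stood at 0.03 on the log2 scale in KO 2, -0.16 in KO 9 and -0.23 in KO 22, where the medians over all tested genes were -0.01, -0.04 and -0.06. KO 22 had 66 members below all wild-type libraries and 10 above, KO 9 had 58 and 20, and KO 2 had 32 and 37. Over all tested genes the shares below all wild-type libraries were 44.3%, 42.9% and 39.3% for KO 22, KO 9 and KO 2, so that KO 2 showed no surplus of low members. Above all wild-type libraries stood 11.2%, 22.5% and 41.6% of members in KO 22, KO 9 and KO 2, where the shares over all tested genes were 34.1%, 38.4% and 37.9%. The summed level of all members was 13490, 13429 and 13270 CPM in WT 1, 2 and 3 and 13760, 11855 and 11285 CPM in KO 2, 9 and 22. Complex V genes contributed most of the spread, with 6318, 6198 and 6144 CPM in wild type against 6686, 5342 and 5233 CPM. By role, the line medians of the complex I core were -0.02, -0.20 and -0.40 in KO 2, 9 and 22, and those of complex V were 0.06, -0.37 and -0.23.

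Levels of different genes were compared per length, in TPM (transcript counts per length, scaled to 1000000 per library) computed from the transcript counts. Atp5b had the highest level of all members, at 2481, 2350 and 2399 TPM in wild type and 2770, 2302 and 2336 TPM in knockout. The next were Cox8a, Atp5g2, Cox6c and Ndufb9, with means over the 6 libraries of 826, 819, 775 and 729 TPM. The order of these 4 was not the same in every library, and Atp5g2 ranged from 936 to 1038 TPM in wild type and from 588 to 753 TPM in knockout. Assembly factors were lowest among the protein-coding roles, with a median of 23.3 TPM against 527 TPM for complex V.

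Several subunits have a general and a muscle-type or tissue-restricted form, and the general forms predominated. Cox6a1 ranged from 652 to 740 TPM over the 6 libraries and Cox6a2, the heart and skeletal muscle form, from 3.11 to 5.88 TPM. Cox8b and Cox8c had 0 counts in every library, which allows up to 3 counts per library from counting error alone. Cox6b2, the testis form, had 13 to 18 counts in wild type and 17 to 23 in knockout, against 220, 220 and 213 CPM and 204, 192 and 179 CPM for Cox6b1. Cox7a1, the muscle form of subunit 7a, had 56, 77 and 47 counts in wild type and 25, 16 and 27 in knockout, with no overlap, at -1.36 (SE 0.332, adjusted p = 0.062, edgeR). Cox7a2, the general form, gave 156, 162 and 153 CPM against 194, 140 and 167 CPM, and Cox7a2l, which takes part in joining complexes III and IV, 82.9, 84.8 and 79.7 CPM against 83.3, 67.3 and 80.9 CPM, both with overlap. Ndufa4, now counted as a complex IV subunit, was at 68.6 to 73.0 CPM in wild type and 65.1 to 77.6 CPM in knockout, and its relative Ndufa4l2 had 26 to 49 counts and 20 to 31 counts. Outside the symbol rule, Cox4i1 had 304, 299 and 324 CPM in wild type and 546, 341 and 368 CPM in knockout, all higher with KO 2 far above the rest, at 0.47 (SE 0.175, adjusted p = 0.155). Its alternative form Cox4i2 had at most 14 counts in a library and was not tested.

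At the transcript level, edgeR called 0 of 316 member transcripts, where 0.335% of all 44821 tested transcripts were called. At an unadjusted p under 0.05 there were 26 member transcripts, where 11.8% of all tested transcripts reached this. The lowest adjusted p was 0.118, for Ndufb9-201, with 20808, 20013 and 19134 counts in wild type against 14421, 14606 and 14721 in knockout. Cyc1-201, the coding transcript of Cyc1, had 13984, 12272 and 13887 counts in wild type and 3831, 6520 and 7649 in knockout, while Cyc1-204, annotated as a retained intron, had 1572, 1226 and 1819 against 10024, 834 and 1115. KO 2 thus had the lowest coding and the highest retained-intron value of Cyc1. The retained-intron transcript Ndufa12-202 had 76, 231 and 33 counts in wild type and 2405, 2126 and 117 in knockout, while the coding transcripts Ndufa12-201 and Ndufa12-204 were both at 0 in KO 2 and KO 9. Cyc1-204 and the Ndufa12 transcripts were chosen after their values were seen, neither gene's transcripts passed the test, and estimated counts divide reads between transcripts that share exons.

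The members' differences went along with their chromosomes. For each of the 89 members, the log2 fold change was set against the median log2 fold change of the other tested genes on its chromosome, and across members Pearson's r was 0.57 and Spearman's rho 0.60. Over all 16053 tested genes on these chromosomes, set against the median of their chromosome, the same values were 0.17 and 0.27. These are correlations across genes, which share libraries and chromosomes and are not independent replicates. The members and all tested genes were not matched for level. Log2 fold changes ranged from -0.77 to 0.47 among members and from -12.1 to 8.09 over all 16678 tested genes. On chromosomes 15, 17 and 19, the 3 member-bearing chromosomes whose median lay below -0.1, 17 of 18 members were negative, with a median of -0.39, and they included 3 of the 4 called genes. On the 7 chromosomes with a median above 0.1, 14 members were positive and 14 negative, with a median of 0.02. On the remaining 9 chromosomes 33 of 43 were negative, with a median of -0.11.

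On some chromosomes the members lay on the side of the chromosome's median, and on others they did not. All 7 members on chromosome 13, Sdha and Uqcrfs1 among them, were positive, with a median of 0.16 where the chromosome's median was 0.20. All 5 on chromosome 19 were negative, with a median of -0.38 where the chromosome's median was -0.21, and Ndufb8 and Cox8a lie there. Ndufb9, Atp5g2 and Cyc1 share chromosome 15, whose median was -0.24. On chromosome 10, in contrast, all 5 members were negative, with a median of -0.09 where the chromosome's median was 0.18, and on chromosome 9 it was 4 of 6, with a median of -0.08 against 0.18. The fall of Ndufaf8 by 0.77 stood on chromosome 11, whose median was 0.01.

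With the median difference of each chromosome taken out of every library, Ndufb9 stood at -0.15 (adjusted p = 0.254), Ndufb8 at -0.17 (0.175), Atp5g2 at -0.32 (0.159) and Ndufaf8 at -0.76 (0.057), all by edgeR. None of the 4 was then called, where 5.25% of all genes were, while Ndufc1 at -0.46 (0.044) and Atp5g1 at -0.53 (0.049) were. The median over all members was -0.10 in that fit too. Taking out the chromosome medians thus removed all 4 calls but left the members' small median difference in place. Ndufaf8 lost its call although its log2 fold change hardly moved, from -0.77 to -0.76. Chromosome copies were not counted in these RNA libraries, and their part in these values was not tested.

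**Figure D3:**
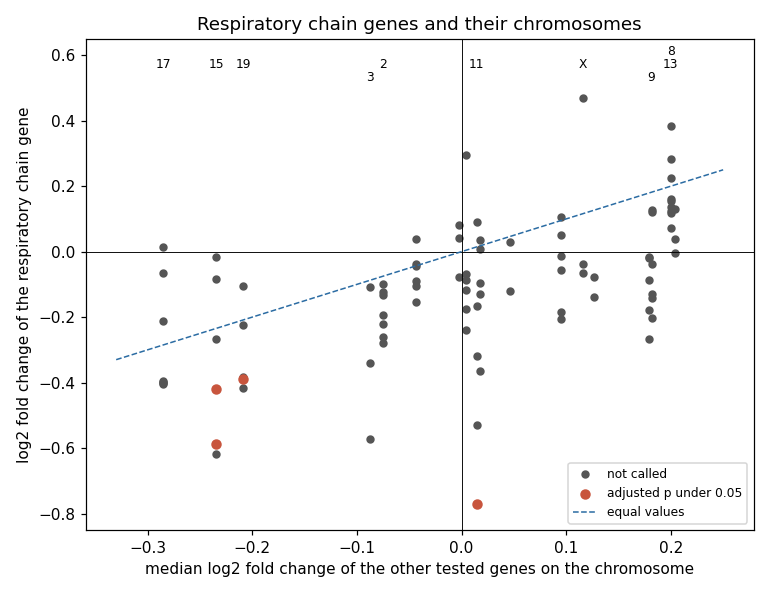
Each point is a member: log2 fold change of knockout over wild type (vertical axis) against the median log2 fold change of the other tested genes on the same chromosome (horizontal axis), with some chromosomes named at the top and a dashed line of equal values. Points at the left, on chromosomes 17, 15 and 19, lie mostly below zero, and the 7 members on chromosome 13 at the right lie above it, while Ndufaf8 on chromosome 11 stands far below its chromosome.

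The hybrid cells carry base differences between the parental chromosomes, so part of the counts could be assigned to genome 1 or genome 2. The sources used here do not name the strain behind genome 1. The test asked whether the ratio of genome 1 to genome 2 differed between knockout and wild type. It covered the 81 members that averaged 20 or more allele-assigned counts, and it called 25 of them, 14 with a higher genome 1 share in knockout and 11 with a lower one. Over all 12984 genes in this test 23.0% were called, so the members' 30.9% is not far above the background. The calls were grouped by chromosome: all 5 tested members on chromosome 19, all 4 on chromosome 6, 4 of 6 on chromosome 7, 4 of 6 on chromosome 1, 3 of 5 on chromosome 10, and 2 of 3 on chromosome 3. The others were Ndufa13 on chromosome 8, Uqcrc1 on chromosome 9 and Atp5mpl on chromosome 12. None was called among the 7 members on chromosome 13 or the 7 on chromosome 17. For 8 of the called members (Ndufa4, Ndufs8, Ndufv1, Ndufc1, Ndufb2, Ndufa5, Ndufab1 and Atp5mpl) the split table departed by more than 10% from the whole-table count in at least 1 library. It summed to 99.6% to 170% for Ndufa4, 76.7% to 99.4% for Ndufs8 and 104% to 127% for Ndufv1. For Ndufc1 it was 99.8% to 125%, and for Atp5mpl 84.8% to 115%. The levels per copy of these 8 members are therefore uncertain, and whether their shares are affected too was not tested.

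On chromosome 19 the shift came with a change of total level. The genome 1 share over all genes of the chromosome was 68.9% to 70.0% in wild type and 48% to 50% in knockout. Ndufb8 had a genome 1 share of 71.8%, 73.1% and 70.6% in wild type and 45.2%, 48.1% and 50.7% in knockout. Its genome 1 level was 81.9, 86.0 and 79.8 allele-assigned CPM in wild type and 40.8, 41.0 and 41.7 in knockout, with no overlap. The genome 2 level went the other way, from 32.1, 31.6 and 33.2 to 49.4, 44.2 and 40.5 allele-assigned CPM, also with no overlap. The allelic ratio differed by -1.47 on the log2 scale (SE 0.139, adjusted p = 0.0016, edgeR). Cox8a showed the same pattern, with a genome 1 mean of 133 ± 3.69 falling to 67.2 ± 10.4 and a genome 2 mean of 47.9 ± 1.01 rising to 63.7 ± 9.75 allele-assigned CPM (SD, n = 3 each). Atp5md, a small subunit of ATP synthase, had genome 1 shares of 76.6% ± 0.744 against 57.1% ± 1.23 in knockout (SD, n = 3 each).

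On chromosome 7 the copies traded places while the totals stayed near wild type. The share over all genes of the chromosome was 56.7% to 58.2% in wild type and 31.6% to 31.9% in knockout. Ndufa3, an accessory subunit of complex I, had 28.7, 27.4 and 25.6 allele-assigned CPM from genome 1 in wild type and 14.3, 11.8 and 12.5 in knockout, and from genome 2 it had 20.2, 19.2 and 19 against 32, 26.2 and 27.6. Both levels were without overlap, in opposite directions, and the log2 ratio differed by -1.63 (SE 0.125, adjusted p = 0.00144, edgeR). Its total level of 99.7, 94.1 and 88.3 CPM against 97.1, 87.5 and 84.4 CPM overlapped, with a difference of -0.04 (SE 0.093). Uqcrc2, a core protein of complex III, moved likewise, from a genome 1 share of 64.0% ± 1.90 to 33.8% ± 0.736 (SD, n = 3 each), with its total at 111 to 118 CPM in wild type and 105 to 125 CPM in knockout. Ndufc2 and Ndufab1 were the other 2 called members there.

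Chromosomes 6 and 1 shifted towards genome 1. The chromosome 6 share was 36.0% to 36.3% in wild type and 61.4% to 63.3% in knockout, and Cycs had 24.3%, 23.1% and 24.0% against 49.8%, 51.1% and 46.5%. Its genome 2 level was 28.0, 30.0 and 28.6 allele-assigned CPM in wild type and 15, 13 and 13 in knockout, and its genome 1 level 9.02, 9.02 and 9.01 against 14.9, 13.6 and 11.3. Neither copy overlapped between the groups. Ndufa4, Ndufa5 and Ndufb2 were the other called members on chromosome 6, with knockout shares of 68.2% ± 1.0, 59.3% ± 5.52 and 63.9% ± 2.79 (SD, n = 3 each). On chromosome 1, Ndufs1, the largest core subunit of complex I, had a share of 38.3% ± 1.77 in wild type and 67.4% ± 5.19 in knockout, and Ndufb3, Ndufa10 and Cox5b were called in the same direction. Of the 25 called members, 17 had both copies without overlap between the groups, 9 with genome 1 above and genome 2 below wild type and 8 the reverse.

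**Figure D4:**
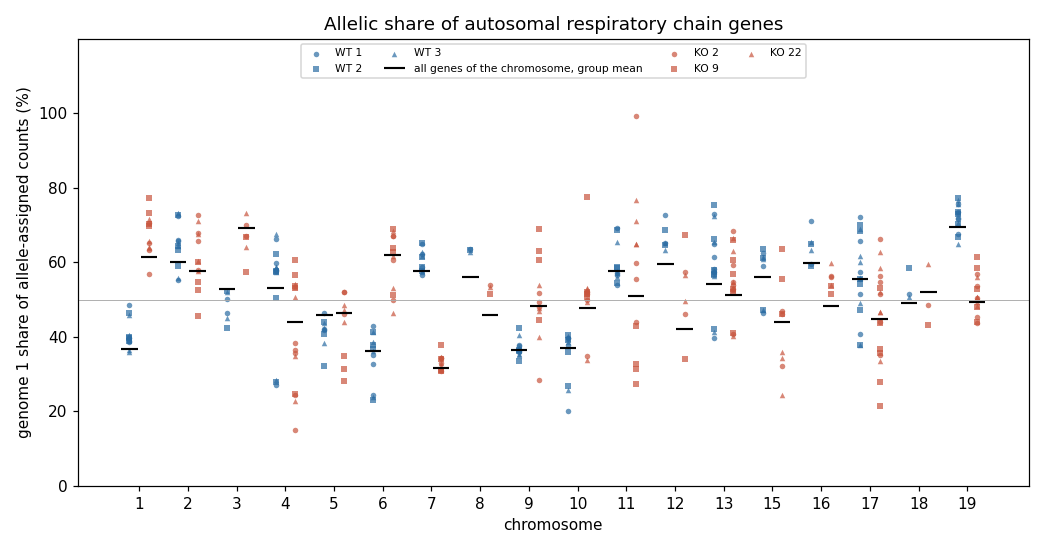
Genome 1 share of allele-assigned counts (vertical axis, percent) by chromosome for 64 autosomal members. These had at least 100 allele-assigned counts in every library and a mean wild-type share between 10% and 90%, while knockout shares were not limited. Blue symbols are wild-type libraries and red symbols knockout libraries. Each black line is the share over all genes of the chromosome, averaged over the group. Members lie around their chromosome's line in both groups, with exceptions such as Ndufaf8 in KO 2. On chromosomes 7 and 19 the red symbols lie below the blue ones.

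**Figure D5:**
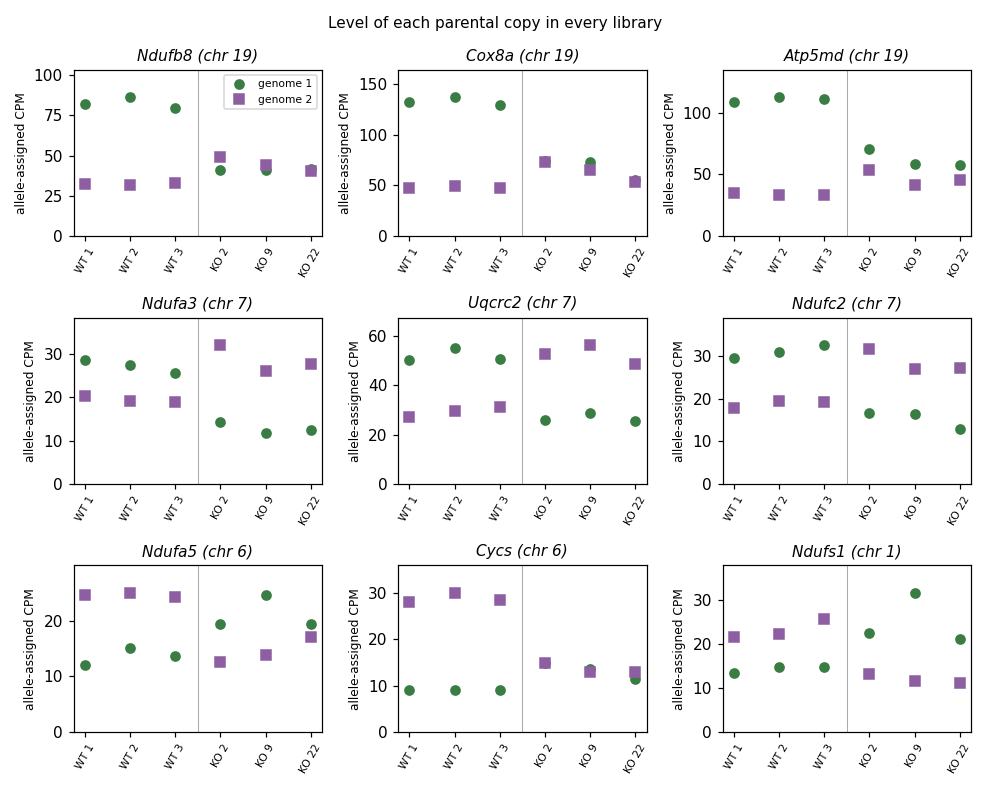
Allele-assigned CPM from genome 1 (green circles) and genome 2 (purple squares) in each of the 6 libraries for 9 members on chromosomes 19, 7, 6 and 1, with vertical axes from 0. On chromosome 7 the order of the copies is reversed between the groups, and for Ndufb8 and Cox8a on chromosome 19 the copies come to nearly equal levels in knockout.

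Among the members called in the gene fit that lie outside these chromosomes, the lines differed in allele share for Atp5g2 and Ndufaf8. Ndufb9 had only 14 to 25 allele-assigned counts per library, too few to compare the lines. Atp5g2 had 46.5%, 47.2% and 47.2% from genome 1 in wild type and 32.2%, 46.2% and 24.4% in KO 2, 9 and 22, next to chromosome 15 shares of 41.2%, 55.5% and 35.0% in those lines. Its genome 1 level was lower in every knockout library, at 69.7 ± 3.67 against 32 ± 6.83 allele-assigned CPM (SD, n = 3 each), while the genome 2 levels overlapped. Ndufaf8 had shares of 57.3%, 58.9% and 57.1% in wild type and 99.2%, 32.6% and 64.8% in KO 2, 9 and 22. In KO 2 its genome 2 level was 0.049 allele-assigned CPM, against 4.93 to 5.26 in wild type, while the genome 1 level of 5.96 was close to the 6.55 to 7.52 of wild type. In KO 9 the genome 1 level was the lower, at 2.72, with genome 2 at 5.61, so the fall of the total came from different copies in different lines. The chromosome 11 share was 57.9%, 31.6% and 63.6% in those lines, so that the share of 99.2% in KO 2 was far from that of its chromosome.

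A few members were read almost wholly from a single copy in every library. Ndufaf1 and Sdhc had at most 0.49% of their allele-assigned counts from genome 1, over 308 to 489 and 633 to 814 such counts per library, and Atp5g3 had at least 99.8% over 4002 to 5377. Neighbours on the same chromosomes did not share this, since Ndufs1 on chromosome 1, which also holds Sdhc, was read from both copies. These genes were alike in this in wild-type and knockout libraries.

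The X-linked members were Ndufa1, Ndufb11 and Cox7b. Female cells silence an X chromosome. The X-wide genome 1 share was 4.50% to 4.88% in wild type and 3.85% to 4.11% in knockout. Ndufb11, an accessory subunit of complex I, had genome 1 shares of 0.83%, 0.62% and 0.88% in wild type and 0.72%, 0.72% and 0.59% in knockout, over 3878 to 4380 allele-assigned counts, and was not called. Its total level was 102, 101 and 97.4 CPM against 101, 92.7 and 87.3 CPM, with overlap. Cox7b, a small subunit of complex IV, had only 28 to 59 allele-assigned counts, of which at most 3.39% came from genome 1, and total levels of 149, 171 and 158 CPM against 152, 161 and 143 CPM. Ndufa1 had 0 allele-assigned counts, so the copy behind its higher level in knockout cannot be read here.

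Genes that work with the respiratory chain were taken from lists chosen by function, and their counts stand beside the 3.19% of all tested genes called lower and the 3.54% called higher. Among 40 tested genes in the list of assembly genes outside the symbol rule, 3 were lower and 0 higher, with a median log2 fold change of -0.13. The list was not of assembly factors alone, as it also held Cox4i1, a complex IV subunit gene, and Lrpprc. Coa3, needed for complex IV assembly, had 60.3, 60.2 and 57.3 CPM in wild type and 20.7, 28.0 and 13.4 CPM in knockout, at -1.49 (SE 0.25, adjusted p = 0.027, edgeR). The knockout libraries were all far lower, and it was the largest fall of this list. Uqcc3, an assembly factor of complex III on chromosome 19, gave 31.5, 31.7 and 28.5 CPM against 18.7, 19.2 and 18.9 CPM (-0.66, adjusted p = 0.022). Lrpprc, which stabilises mitochondrial mRNAs, lay at 107, 113 and 108 CPM against 86.1, 64.2 and 61.0 CPM (-0.60, adjusted p = 0.0499), without overlap.

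Of 13 coenzyme Q synthesis genes 0 were called by edgeR, with 3 at an unadjusted p under 0.05 and a median of 0.02. Of 15 regulators of mitochondrial genes 2 were lower. Pprc1, a coactivator of NRF1, had 71.0, 100 and 101 CPM in wild type and 57.2, 50.4 and 40.4 CPM in knockout (-0.85, adjusted p = 0.043), with no overlap. Ppargc1a, a coactivator of mitochondrial biogenesis, was scarce throughout, with 18, 28 and 21 counts against 4, 1 and 0 (adjusted p = 0.043). Nrf1 differed by -0.30 (adjusted p = 0.193), Gabpa by 0.18 (0.197) and Gabpb1 by 0.06 (0.846), and none of these passed.

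The mitochondrial genome encodes 13 proteins of complexes I, III, IV and V, and their transcripts are the partners of the genes described here. All 13 had negative differences, with a median of -0.30, and 2 were called lower. Both are core subunits of complex I: mt-Nd2 had 1214, 905 and 1221 CPM in wild type and 614, 607 and 683 CPM in knockout (-0.78, adjusted p = 0.033, edgeR), and mt-Nd1 had 1385, 1435 and 1608 CPM against 988, 894 and 1072 CPM (-0.55, adjusted p = 0.037). Neither overlapped between the groups. For 11 of the 13 every knockout library was below every wild-type library, against 22 of the 89 nuclear members and 20.2% of all tested genes. With any wild-type library left out, none of the 7 called genes named from these lists passed (adjusted p of 0.054 or more). Without KO 9, Lrpprc, Pprc1, Ppargc1a, mt-Nd1 and mt-Nd2 did not pass (adjusted p of 0.050 to 0.086), without KO 2 mt-Nd1 and mt-Nd2 did not (0.053 and 0.054), and without KO 22 Lrpprc did not (0.056). With chromosome medians taken out, Coa3 (0.026) and Ppargc1a (0.048) still passed and the other 5 did not; for the mitochondrial genes the median taken out is that of the 29 tested genes of the mitochondrial genome, these 13 among them.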

How the data were processed

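PolyA RNA of 6 TTF libraries was analysed. Tools named in the submitters' processing notes are HISAT2 2.1.0 (an aligner), StringTie 1.3.3 (an assembler and quantifier), Trimmomatic 0.36, FastQC 0.11.3, SAMtools 0.1.19 and DESeq2 1.32.0, and the builds are mm10 and GRCm38; the role each had is not stated. The 3 tables of estimated counts from the authors were used: by gene, by transcript, and by gene after splitting reads by genome. They are whole numbers and were used as deposited. The sources used here do not state counter or strand settings, so a member and a gene that overlaps it, such as Ndufs1 and Eef1b2, cannot be told apart where they share bases. The split transcript table was not used. Columns were matched to samples by name, and the knockout columns by the numbers 2, 9 and 22, which match line titles but do not settle that the columns are these samples. Coordinates are from GENCODE M21 (GRCm38), which held 55141 of the 55487 genes.

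Genes, transcripts and allelic ratios were each fitted over the whole table by the quasi-likelihood method of edgeR 4.0.16 under R 4.3.3, with Benjamini-Hochberg adjustment. The gene and transcript fits were TMM-scaled, while the allelic fit was scaled by each library's summed allele-assigned counts. Genes and transcripts passed edgeR's default filter on low counts. The allelic model had a term per library and an allele by group term. Adjusted p under 0.05 was called, and adjusted p-values in the text are from edgeR unless another tool is named. CPM are counts scaled to 1000000 per library, and TPM were computed from transcript counts and M21 lengths. Alternatives were DESeq2 1.42.0, limma-voom (limma 3.58.1), RLE factors, total counts, no filter, chromosome medians taken out, each library left out, a minimum of 50 allele-assigned counts, and limma on the logit share. The fits were also run on simulated data drawn with the same spread in both groups, unlike these libraries, and no result here rests on that run.

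Genes named in the text were Sirt7, members called in the gene fit, the 4 largest rises and falls with a mean of at least 5 CPM, the 5 most abundant members per length, isoform sets, X-linked members, members called in the allelic fit or with a genome 1 share under 10% or over 90%, and up to 4 called genes of each related list; other members stand as examples of their role. Members, roles and lists were chosen with earlier results of these data known. Some results that meet this rule are not reported here.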

Additional observations from a re-analysis of the deposited data

How the results depend on the processing

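The 1123 genes called over the whole table became 396 with no filter on low counts, 2581 with DESeq2 and 45 to 2482 with a library left out. The 4 members called became 0 with no filter, 2 with chromosome medians taken out, 11 with DESeq2 and 0 to 12 with a library left out. They stayed within 1.5 times of 4 with RLE factors, total counts and limma-voom. The member median lay between -0.15 and -0.09 under every alternative. The complex II median of -0.11 moved to -0.14 with total counts and to -0.16 with chromosome medians taken out, and lay between -0.14 and -0.0099 with a library left out. The 25 allelic calls ranged from 19 to 33 with a library left out, and edgeR called 0 member transcripts throughout. Signs were compared under every alternative for only part of the genes. Among these, differences that changed sign were small, and none was called. With chromosome medians taken out, Cox6c was at 0.18, Cox6a2 at 0.0094, Cox7a2 at -0.048 and Cox7a2l at 0.22. Other members also changed sign in that fit, among them Ndufs8 (-0.10 to 0.11), Ndufaf7 (-0.21 to 0.080), Ndufa13 (0.12 to -0.073) and Atp5o (0.040 to -0.14). With a library left out, Atp5b lay between -0.13 and 0.028, Cox6a2 between -0.36 and 0.13, Cox7b between -0.086 and 0.0077, Cox7a2l between -0.12 and 0.021, and Ndufa4 between -0.037 and 0.078. The cause was not tested. No paired analysis was possible because the labels pair no wild-type library with a knockout library. The shared number 2 is a replicate number in WT 2 and, by the match used, a line number in KO 2. At these depths counting error is small for most members, and the 3 libraries per group limit the precision.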

Other observations

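The processed pseudogenes among the members were low and alike in both groups. Cox6c2 was read at 7.14, 6.87 and 6.21 CPM in wild type and 5.45, 6.39 and 6.11 CPM in knockout, and Ndufb4c at 8.17, 7.75 and 8.03 CPM against 7.86, 8.51 and 6.83 CPM. They are copies of Cox6c and Ndufb4, and how the authors' counting divided reads between a gene and its copy is not stated, so these values are uncertain.

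The split and whole tables did not always hold the same number of counts for a member. In 26 of the 89 members the split sum departed from the whole count by more than 10% in at least 1 library. Besides Ndufaf4, Ndufa12 had 4590, 4206 and 5186 split counts in wild type and 4452, 2823 and 3572 in KO 2, 9 and 22, against whole counts of 4926, 4252 and 5444 and of 4831, 3889 and 3923. Its genome 1 share was 20.1%, 26.9% and 25.7% in wild type and 34.8%, 77.7% and 33.9% in KO 2, 9 and 22, so that KO 9 stood apart in both measures. Ndufa4 had 7627 split counts in WT 3 against 4493 whole counts, while in the other libraries the split counts were within 10% of the whole counts.

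Single libraries stood apart in several members that were not called. Ndufaf3, an assembly factor of complex I, was at 8.39 CPM in KO 9 against 14.2 to 15.5 CPM in wild type and 17.5 and 16.8 CPM in KO 2 and KO 22. Ndufs3, a core subunit of complex I, was at 33.9 CPM in KO 9 against 54.8 to 56.8 CPM in wild type and 58.9 and 50.4 CPM in the other knockout libraries. Atp5a1, the alpha subunit of ATP synthase, was at 550 CPM in KO 22 against 721 to 770 CPM in wild type and 898 and 795 CPM in KO 2 and KO 9.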
